A study of Homo sapiens with 11 samples.

Results

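Glycolysis turns glucose into pyruvate in the cytosol, and its genes are described here with those for the entry of glucose, the exit of lactate and the switches on either side of the pathway. The set holds 31 genes chosen by name: hexokinases, the enzymes from glucose-6-phosphate to pyruvate, lactate dehydrogenases, glucose and monocarboxylate transporters, pyruvate dehydrogenase kinases and the bifunctional enzymes that set fructose-2,6-bisphosphate. All 31 were among the 19990 genes of the count table, all passed the filter on low counts, and none was at 0 in any library. The rule for choosing them lists names and no measured value, but it was set with earlier results of these data known. Most steps can be catalysed by more than one isoenzyme, and the isoform in use differs between fetal and adult tissue and between striated muscle and other cells. The fetal heart relies largely on glucose and lactate, whereas the adult heart draws mainly on fatty acids, and cardiomyocytes made from pluripotent cells are known to begin with a fetal type of metabolism. Pyruvate dehydrogenase kinases inhibit the entry of pyruvate into the mitochondrial citric acid cycle, and the monocarboxylate transporters MCT1 (SLC16A1) and MCT4 (SLC16A3) carry lactate and pyruvate across the plasma membrane.

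The cells were cardiomyocytes made from WTC11, a widely used human iPSC line (induced pluripotent stem cells, passage 63). One differentiation was run, with the GSK3 inhibitor CHIR99021 followed by IWP2, which blocks Wnt secretion. Wells kept in RPMI1640 with B27 and insulin were collected at Day 30 (4 wells), Day 60 (3 wells) and Day 113 (4 wells), and poly(A) RNA was sequenced. The replicates are thus wells of one differentiation of one line, and p-values measure only the spread between them. Age of the culture and time of collection cannot be told apart. The 11 libraries held 24071375 to 34546715 counts. Cardiomyocyte markers were abundant in every well (TNNT2 2260.0 to 5816 CPM, read counts scaled to a common library size), with a summed level of 10 markers of 32091 to 43947 CPM at Day 30, 38876 to 44316 at Day 60 and 33795 to 37687 at Day 113. Day 113 replicate 2 stood apart from the other wells of its day, with TTN at 2535 CPM (others 6744, 5573 and 5956), RYR2 at 483 (others 919, 844 and 845) and the highest TNNT2. TTN and RYR2 have very long transcripts, and the part of RNA quality was not tested. Markers of other cell types were detected too. Across the wells of Days 30, 60 and 113, the summed CPM of 7 fibroblast markers was 3353 to 7706, 2068 to 3569 and 5427 to 13033, and that of 6 endothelial markers 52.9 to 75.5, 37.1 to 60.4 and 182 to 748. Most of the fibroblast sum came from COL1A1, COL1A2 and COL3A1. From Day 30 to Day 113, 3 of the 7 fibroblast markers rose and 2 fell. PDGFRA had 3409 to 4700 counts per library at Day 30 and 601 to 1318 at Day 113. In the order of the days, the summed CPM of 3 smooth muscle markers was 446 to 685, 522 to 675 and 702 to 1096. That of 4 skeletal muscle markers, mostly CKM, was 243 to 332, 474 to 685 and 391 to 519. The sum of 6 endoderm and liver markers was 458 to 1330.5, 46.7 to 55.2 and 11.6 to 41.1, and that of 5 cell cycle genes 303 to 378, 491 to 708 and 194 to 359.9. The part of these cells in the results was not tested. In bulk RNA fewer cells of a type and less RNA per cell cannot be told apart.

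Of all counts, the 31 genes took 2.82% ± 0.124 (SD, n = 4) in the Day 30 wells, 3.01% ± 0.216 (SD, n = 3) in the Day 60 wells and 2.26% ± 0.213 (SD, n = 4) in the Day 113 wells. Per kb of exon, which allows levels of different genes to be compared, GAPDH stood highest at Day 30 with 3559.7 ± 173 CPM per kb (SD, n = 4), followed by ENO1 with 1500.3 ± 123, TPI1 with 748 ± 66.6 and LDHA with 689 ± 63.4 (SD, n = 4). TPI1 and LDHA differed by less than their spread, as did PKM (579.5 ± 46.9) and LDHB (571 ± 34.2), which came next. At the other end were PDK4 with 0.679 ± 0.200 and PFKFB2 with 2.00 ± 0.220 CPM per kb (SD, n = 4). PDK4, the kinase that fasting and fatty acids are known to induce, thus had a lower level per kb than PDK1 (52.1 ± 3.68), PDK3 (48.8 ± 2.30) and PDK2 (21.5 ± 2.37). Exon lengths were those of GENCODE release 29, and those behind the authors' counts may differ. The exons of 17 of the 31 genes overlap another annotated gene, 8 of them one that is in the table, and 12 have annotated pseudogenes of the same name (62 for GAPDH). How reads shared by such genes were counted is not given in the sources used here.

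**Figure D1:**
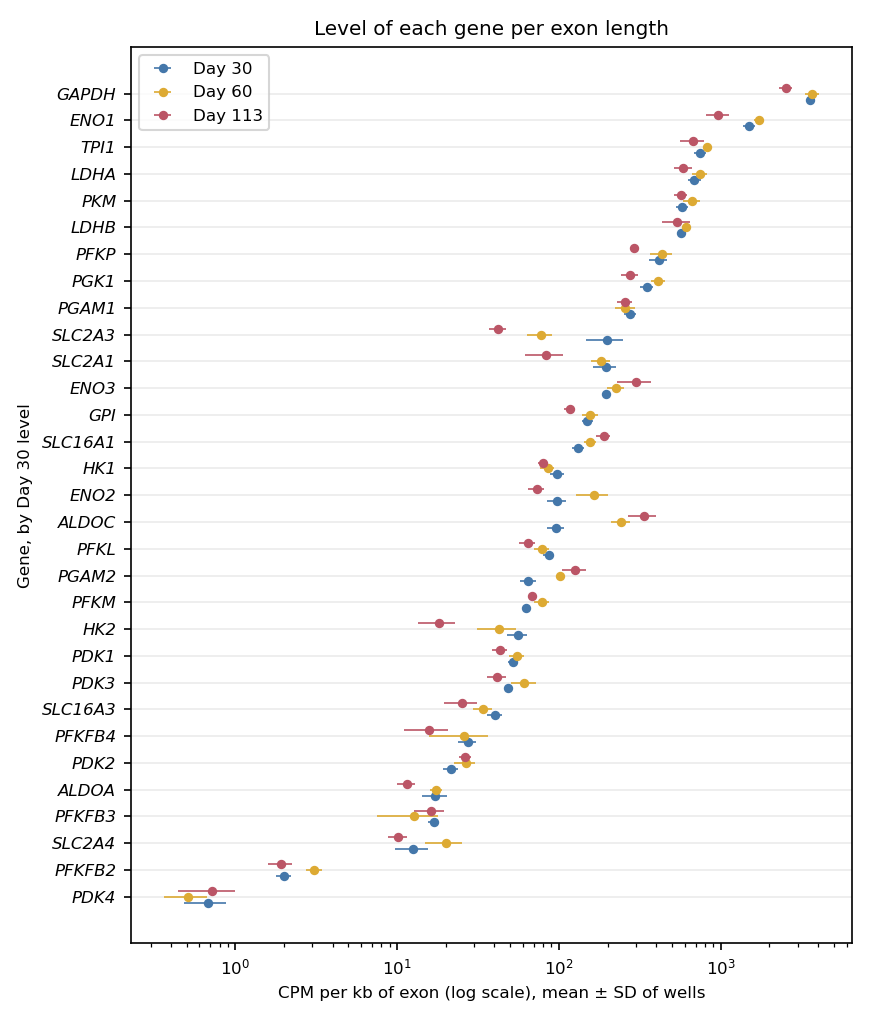
Mean level of each gene in CPM per kb of exon on a log axis, with the SD between wells, for Day 30 (blue, n = 4), Day 60 (yellow, n = 3) and Day 113 (red, n = 4). GAPDH is highest and PDK4 lowest at all 3 days, and ALDOC moves from 96.5 to 334 CPM per kb while SLC2A3 moves from 198 to 42.4.

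A gene was called changed at an adjusted p under 0.05 in edgeR's quasi-likelihood test over all genes, and errors of log2 changes are standard errors (SE). From Day 30 to Day 113, 19 of the 31 genes changed, 14 lower and 5 higher, where 34.5% of all genes tested changed (17.2% lower and 17.3% higher). The 14 that fell were the glucose transporters SLC2A3 and SLC2A1, the hexokinases HK2 and HK1, GPI, the phosphofructokinases PFKL and PFKP, ALDOA, GAPDH, PGK1, the enolases ENO1 and ENO2, the lactate exporter SLC16A3 and PFKFB4. The 5 that rose were ALDOC, PGAM2, ENO3, SLC16A1 and PDK2. The median log2 fold change of the 31 genes was -0.26, against -0.018 over all genes tested. Day 60 and Day 30 differed in 7 genes (6 higher, 1 lower), where 10.3% of all genes tested differed (4.39% higher and 5.91% lower), with a median of 0.10 against -0.011 over all genes. Day 113 and Day 60 differed in 16 genes (15 lower, 1 higher), where 24% of all genes did (11.1% lower and 12.9% higher), with a median of -0.35 against 0.0016. Shares over all genes include genes with few counts, as the filter removed none. In a fit of the 16585 genes with at least 1 CPM in 3 libraries, 41.3% changed from Day 30 to Day 113. In that fit the share was 12.6% for Day 60 against Day 30 and 29.2% for Day 113 against Day 60. The intervals before and after Day 60 share the Day 60 wells, so their changes are not independent. Day 60 against Day 30 gave 4 genes in place of 7 when Day 30 replicate 3 or Day 60 replicate 1 was left out, and 7.18% and 6.3% of all genes in those fits. Counted by well, Day 113 lay wholly below Day 30 for 13 of the 31 genes and wholly above it for 5, where 18% and 17.1% of all genes did. Without Day 113 replicate 2, the highest of its day for TPI1, ENO3, ALDOC and LDHB and the lowest for HK2, PDK3 and PFKFB2, 20 genes changed from Day 30 to Day 113 (34% of all genes) and 19 from Day 60 (23.9%). TPI1, LDHA, LDHB, PFKL and SLC16A3 then passed after Day 60 (adjusted p = 0.0086, 0.015, 0.033, 0.011 and 0.0046, all lower). With all wells, the genes that passed in none of these comparisons were TPI1, PGAM1, PKM, LDHA, LDHB, PDK4 and PFKFB3.

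The summed CPM of the set in the single wells was 28871, 29719, 25906 and 28931 at Day 30, 33777, 28519.6 and 28879 at Day 60 and 19621, 24908, 23293 and 21856 at Day 113. All 4 Day 113 wells were thus below all wells of the other days. Divided by the summed CPM of the 10 cardiomyocyte markers, the values were 0.657, 0.825, 0.807 and 0.671 at Day 30, 0.762, 0.716 and 0.743 at Day 60 and 0.551, 0.661, 0.674 and 0.647 at Day 113. On that scale Day 113 lay below Day 60 in every well but overlapped Day 30. The marker sum does not follow cardiomyocyte content alone, as 2 of its 10 genes rose and 2 fell from Day 30 to Day 113. MYH7, with the most counts of the 10 in every well, had 361511 to 492889 per library at Day 30 and 201102 to 356953 at Day 113. TNNT2 had 68675 to 95274 and 99345 to 155138. The part of single markers in the overlap was not tested. Day 113 replicates 1 and 3 had the highest fibroblast sums of that day (13033, 6754, 11264 and 5427 CPM in replicates 1 to 4) and the highest endothelial sums (748, 283, 346 and 182 CPM). Without these 2 wells, 15 of the 31 genes changed from Day 30 to Day 113 (10 lower, 5 higher; 30.4% of all genes) and 16 from Day 60 (13 lower, 3 higher; 19.7% of all genes), an alternative chosen after the data were seen.

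**Figure D2:**
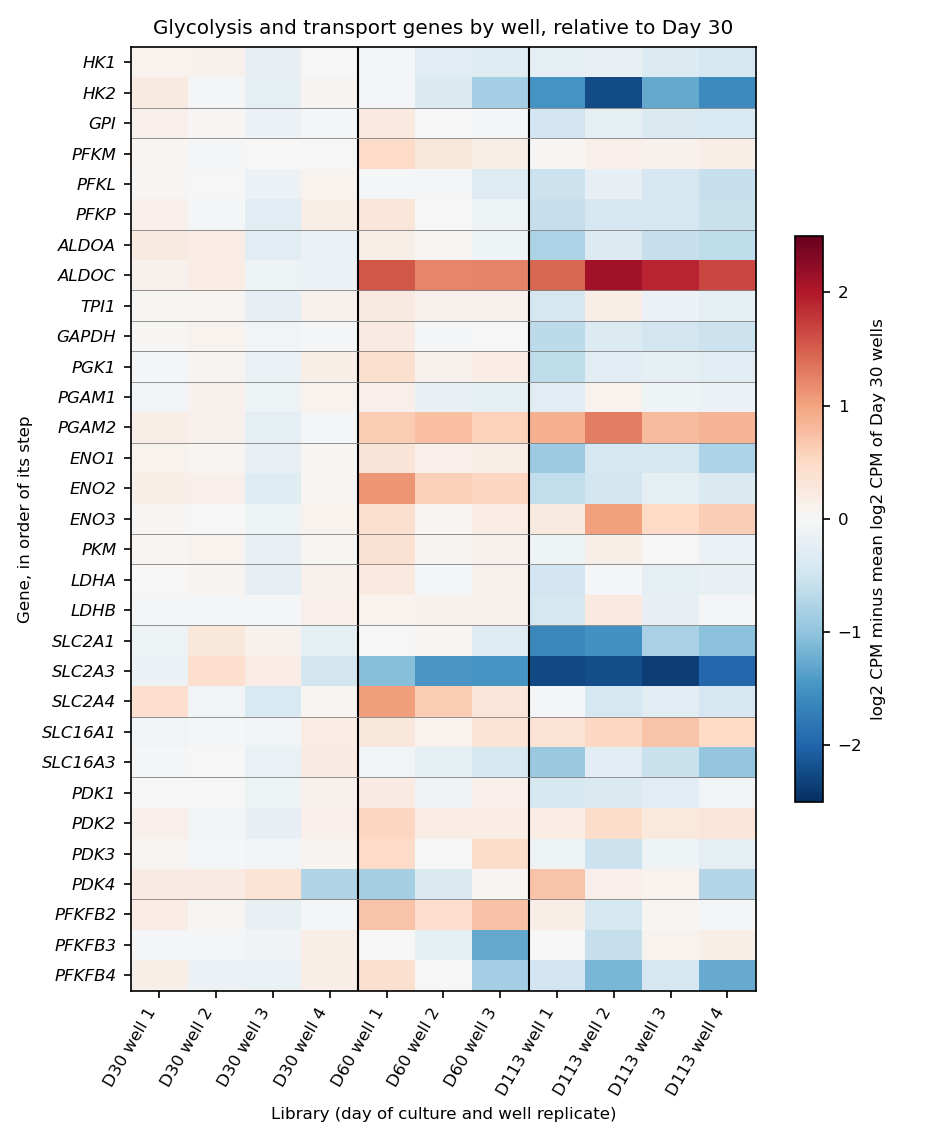
Heat map of the 31 genes (rows, in the order of their steps) in the 11 libraries (columns, by day and well), coloured by log2 CPM minus the mean log2 CPM of the Day 30 wells. ALDOC and PGAM2 are red in every Day 60 and Day 113 well, SLC2A3 is blue in all of them, and HK2 and SLC2A1 are darkest blue at Day 113.

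Glucose enters the cell through facilitative transporters, of which GLUT1 (SLC2A1) is the widely expressed form, GLUT3 (SLC2A3) a high-affinity form best known from neurons, and GLUT4 (SLC2A4) the insulin-responsive form of muscle and fat. SLC2A3 (chromosome 12, 7919230 to 7936275, minus strand, GRCh38) measured 679, 1009, 862 and 552 CPM at Day 30, 362, 274 and 270.5 CPM at Day 60 and 158, 162, 149 and 195 CPM at Day 113. Values of the 3 days did not overlap and stepped down at each collection. The log2 change of SLC2A3 was -1.36 ± 0.18 (SE; adjusted p = 1.9e-04) up to Day 60, -0.87 ± 0.17 (adjusted p = 0.0019) after it and -2.23 ± 0.17 (adjusted p = 1.0e-07) over the whole course, a level 4.68-fold lower. Its Day 30 wells were themselves far apart, with replicates 2 and 3 highest. The fibroblast sums were highest in the same 2 wells (4508, 7706, 6796 and 3353 CPM in replicates 1 to 4), as were the summed CPM of 5 epithelial markers (2249.6, 2909, 2378 and 2028). From Day 30 to Day 60, when SLC2A3 fell, the epithelial sum went to 1454, 1455 and 1271 CPM (4 of 5 markers lower), and EPCAM went from 45.6, 92.0, 71.1 and 28.7 CPM to 2.62, 1.25 and 1.92 CPM. The endoderm and liver sum was also lower. After Day 60, when SLC2A3 fell again, the epithelial sum did not fall, at 1172 to 1959 CPM at Day 113 (2 of 5 markers higher, 1 lower). The fibroblast sum went up, from 2068 to 3569 CPM at Day 60 to 5427 to 13033 CPM at Day 113. The endoderm and liver sum was lower again, at 11.6 to 41.1 CPM. Which cells held the SLC2A3 RNA was not tested.

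SLC2A1 (chromosome 1, 42925375 to 42959176, minus strand) fell after Day 60. Its wells measured 702, 931, 824 and 651 CPM at Day 30, 764, 796 and 613 CPM at Day 60 and 250.4, 269, 436 and 378 CPM at Day 113. As for SLC2A3, Day 30 replicates 2 and 3 were the highest of their day. All Day 113 wells lay below all others. The change was -0.10 ± 0.18 (SE; adjusted p = 0.82) by Day 60, with a sign that turned when single wells were left out. It was -1.12 ± 0.18 (adjusted p = 3.7e-04) from Day 60 to Day 113, which is 2.17-fold lower. SLC2A1 overlaps the antisense gene SLC2A1-AS1, which is also in the table. SLC2A4 was the least abundant of the 3 transporters, at 12.6 ± 2.92 CPM per kb at Day 30 against 195 ± 31.5 for SLC2A1 and 198 ± 51.4 for SLC2A3 (SD, n = 4), of which the last pair did not differ beyond its spread. SLC2A4 measured 65.7, 47.0, 37.8 and 50.9 CPM at Day 30, 102, 76.8 and 61.3 CPM at Day 60 and 48.0, 36.5, 40.4 and 37.0 CPM at Day 113. It rose by 0.67 ± 0.18 (SE; adjusted p = 0.025) to Day 60, although the wells of Days 30 and 60 overlapped. It then fell by 0.98 ± 0.18 (SE; adjusted p = 0.0011). The rise was not called without Day 30 replicate 2, 3 or 4 or Day 60 replicate 1 or 2 (adjusted p = 0.051 to 0.15). Summed over the 3 transporters, the wells held 1447, 1987, 1724 and 1254 CPM at Day 30, 1228, 1147 and 945 at Day 60 and 456, 467, 625 and 610.2 at Day 113, with no overlap between the days. The log2 count ratio of SLC2A3 to SLC2A1 differed by -1.24 between Days 30 and 60 (exact permutation p = 0.0286, adjusted 0.0571), the Day 60 wells being lower. That of SLC2A4 to SLC2A1 was 0.95 higher at Day 113 than at Day 30 (exact permutation p = 0.0571, adjusted 0.0946), with wells that overlapped.

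Hexokinase traps glucose as glucose-6-phosphate. HK1 is the constitutive form, and HK2 the form of insulin-sensitive muscle that growth signals and hypoxia are known to induce. HK2 (chromosome 2, 74833981 to 74893359, plus strand) measured 386, 317, 278 and 345 CPM at Day 30, 323, 256 and 184 CPM at Day 60 and 116, 69.6, 135 and 109 CPM at Day 113. Every Day 113 well was below every earlier well. The log2 change of HK2 was -0.38 ± 0.20 (SE; adjusted p = 0.28) by Day 60 and -1.24 ± 0.20 (adjusted p = 3.9e-04) from Day 60 to Day 113. HK2 was 3.09-fold lower at Day 113 than at Day 30 (adjusted p = 8.7e-06). HK1 measured 487, 489.7, 395 and 460.5 CPM at Day 30, 443, 382 and 370.3 CPM at Day 60 and 384, 399.7, 359 and 342 CPM at Day 113. Its fall by Day 113 was 0.30 on the log2 scale (adjusted p = 0.024) with overlapping wells, and was not called without Day 30 replicate 1 or 2 or Day 113 replicate 3 or 4 (adjusted p = 0.061 to 0.082), nor without Day 113 replicates 1 and 3 together (0.075). The count ratio of HK2 to HK1 was 0.793, 0.648, 0.702 and 0.749 at Day 30, 0.728, 0.671 and 0.496 at Day 60 and 0.302, 0.174, 0.375 and 0.318 at Day 113. All Day 113 wells were below the rest. The log2 difference between Days 30 and 113 was -1.36 (exact permutation p = 0.0286, adjusted 0.0571).

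Sequences before a transcript start of 3 genes that fell by Day 113 are shown because the CGTG core preceded by A or G, to which the hypoxia-inducible factors are known to bind, is a textbook feature of glycolytic promoters. They run 5′ to 3′ on the gene's strand over the 250 bases before a RefSeq transcript start (GRCh38.p14), with every ACGTG or GCGTG on either strand in capitals (CACGTG holds one on each strand and counts as 2).
HK2, chr2:74834920-74835169: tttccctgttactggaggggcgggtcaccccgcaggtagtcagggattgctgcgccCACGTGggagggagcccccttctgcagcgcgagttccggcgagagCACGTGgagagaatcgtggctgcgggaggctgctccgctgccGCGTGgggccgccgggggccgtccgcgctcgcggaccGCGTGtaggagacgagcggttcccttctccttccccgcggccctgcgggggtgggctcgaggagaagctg
SLC16A3, chr17:82228792-82229041: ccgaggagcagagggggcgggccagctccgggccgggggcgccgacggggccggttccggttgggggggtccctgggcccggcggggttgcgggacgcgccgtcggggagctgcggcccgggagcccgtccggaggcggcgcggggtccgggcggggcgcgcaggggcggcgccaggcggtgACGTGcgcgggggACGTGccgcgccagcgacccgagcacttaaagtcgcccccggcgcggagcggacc
PFKL, chr21:44299803-44300052: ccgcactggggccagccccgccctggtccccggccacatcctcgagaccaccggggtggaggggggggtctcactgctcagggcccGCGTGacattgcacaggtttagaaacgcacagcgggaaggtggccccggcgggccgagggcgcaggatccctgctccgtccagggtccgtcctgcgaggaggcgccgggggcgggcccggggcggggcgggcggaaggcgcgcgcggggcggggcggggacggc
The HK2 stretch, before the second of the listed starts and inside the span of the gene, held 6 matches. The SLC16A3 stretch, before 1 of several listed starts and also inside the span of its gene, held 2. The PFKL stretch held 1. Only windows with at most 30 bases in annotated exons could be shown, 14 in all for the genes that fell, of which 5 held a match. The 3 genes were set by name, and for each the window with the most matches was taken, so the 3 are not a fair sample of the 14. The 6 such windows of HK1, which also fell, held 0, and the 4 of PFKP held 0 to 3. Genes that rose held matches too: 5 in the ALDOC window, 1 in that of PGAM2, up to 2 for ENO3 and up to 3 for PDK2. Their windows had more than 30 bases in annotated exons and could not be shown. Whether matches differ between genes that fell and genes that rose was not tested. RefSeq starts were matched for 27 of the 31 genes. At least one match lay in 30 of their 56 windows (53.6%), against 43.2% of 35116 windows of all genes. For ACGTG alone the shares were 33.9% and 18.5%, and for GCGTG 32.1% and 32.2%. A match is a string of letters and not a binding site, and the data hold no measure of binding.

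GPI converts glucose-6-phosphate to fructose-6-phosphate, and phosphofructokinase 1 commits it to glycolysis as a tetramer of muscle (PFKM), liver (PFKL) and platelet (PFKP) subunits. GPI measured 735, 682, 608 and 660.1 CPM at Day 30, 789.6, 662 and 648 CPM at Day 60 and 478, 573, 519.7 and 515 CPM at Day 113. It fell by 0.43 ± 0.10 (SE; adjusted p = 0.0079) after Day 60. The fall did not pass without Day 60 replicate 1 (-0.34, adjusted p = 0.053) and without Day 113 replicates 1 and 3 together (-0.36, adjusted p = 0.051). PFKP, the subunit with the highest level per kb (414 ± 53.5 CPM per kb at Day 30, against 86.4 ± 6.09 for PFKL and 63.0 ± 1.36 for PFKM; SD, n = 4), is expressed widely. It measured 1697, 1517, 1298 and 1743 CPM at Day 30, 1917, 1552 and 1426 CPM at Day 60 and 1043, 1163, 1165 and 1061 CPM at Day 113. After Day 60 PFKP fell by 0.56 ± 0.12 (SE; adjusted p = 0.0041), with all Day 113 wells below all others. PFKM, the muscle subunit, measured 310.4, 295, 299 and 299 CPM at Day 30, 418, 366 and 339.6 CPM at Day 60 and 308, 328, 325 and 336 CPM at Day 113. It rose by 0.32 ± 0.09 (SE; adjusted p = 0.037) to Day 60 without overlap. The rise did not pass without any one of the 4 Day 30 wells, Day 60 replicate 1 or 2 or Day 113 replicate 3 (adjusted p = 0.051 to 0.16). PFKL measured 262, 258, 229.9 and 272 CPM at Day 30, 251, 245 and 204 CPM at Day 60 and 176, 221, 189.7 and 172 CPM at Day 113. At Day 113 it was 1.35-fold lower than at Day 30 (adjusted p = 0.0041).

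Counts of the muscle subunit were also set against those of the others. The count ratio of PFKM to PFKP was 0.183, 0.195, 0.231 and 0.172 at Day 30, 0.218, 0.236 and 0.238 at Day 60 and 0.295, 0.282, 0.279 and 0.317 at Day 113. Each Day 113 well lay above each earlier well, and the log2 ratio was 0.60 higher than at Day 30 (exact permutation p = 0.0286, adjusted 0.0571). The ratio of PFKM to PFKL was 1.19, 1.14, 1.30 and 1.099 at Day 30, 1.67, 1.49 and 1.66 at Day 60 and 1.75, 1.48, 1.71 and 1.96 at Day 113. Its log2 value was 0.44 higher at Day 60 than at Day 30 (exact permutation p = 0.0286, adjusted 0.0571), and 0.096 higher at Day 113 than at Day 60 (exact permutation p = 0.343, adjusted 0.392). PFKM stayed below PFKP per kb at Day 113, at 67.9 ± 2.52 against 293 ± 17.3 CPM per kb (SD, n = 4). PFKM shares exon sequence with SENP1, which is in the table.

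**Figure D3:**
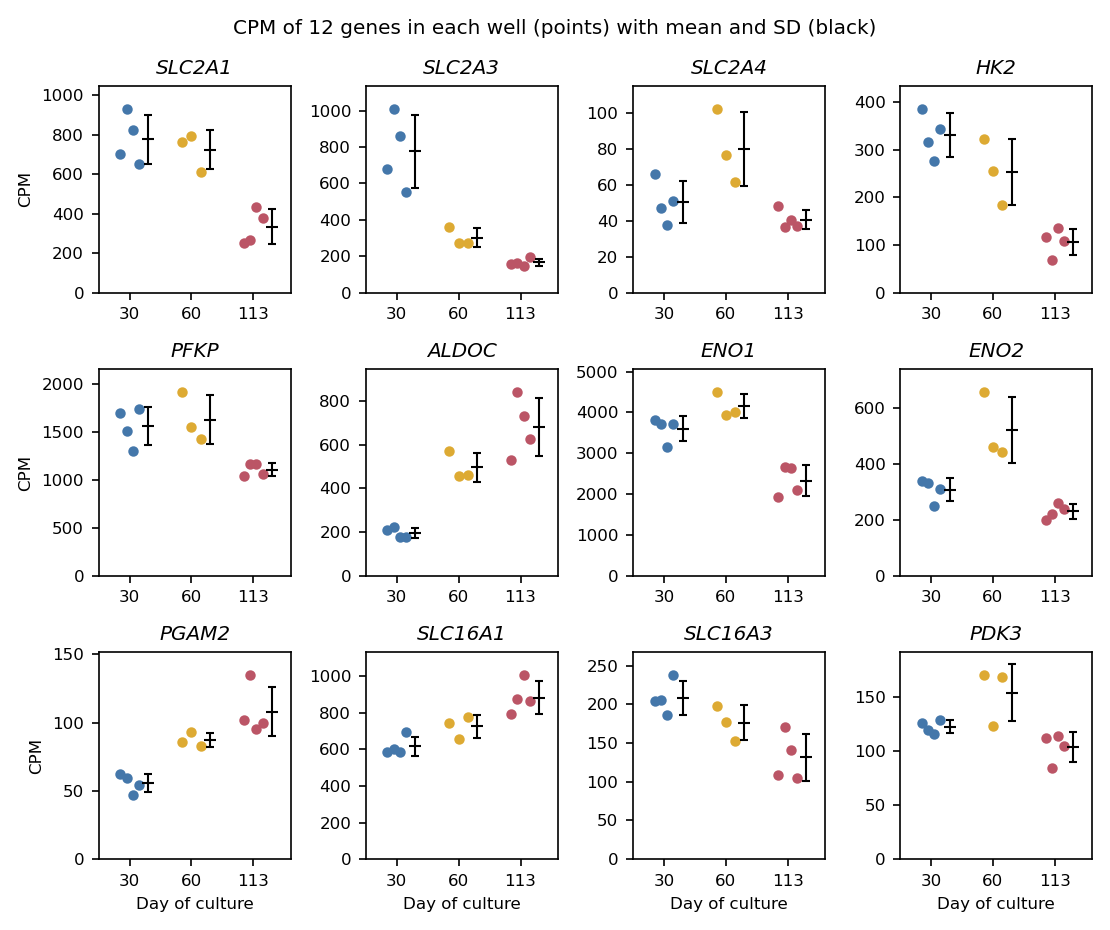
CPM in each well (points: blue Day 30, yellow Day 60, red Day 113) of 12 of the genes, with the mean and SD in black (n = 4, 3 and 4). SLC2A1, HK2 and PFKP overlap between Days 30 and 60 and are lower at Day 113, ENO1 is lowest at Day 113, ENO2, SLC2A4 and PDK3 are highest on average at Day 60, and ALDOC, PGAM2 and SLC16A1 climb.

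Aldolase splits fructose-1,6-bisphosphate, with ALDOA the muscle form and ALDOC the form best known from brain. ALDOC (chromosome 17, 28573115 to 28577264, minus strand) measured 209, 223, 178 and 176 CPM at Day 30, 572, 455 and 461 CPM at Day 60 and 530.0, 839, 730.1 and 625 CPM at Day 113. All later wells were above all Day 30 wells. ALDOC rose by 1.33 ± 0.15 (SE; adjusted p = 3.3e-05) to Day 60 and was 3.46-fold higher at Day 113 than at Day 30 (adjusted p = 1.4e-07). The further rise of 0.46 ± 0.15 (SE; adjusted p = 0.033) after Day 60 came with overlapping wells and was not called without Day 60 replicate 2 or 3 or Day 113 replicate 2 or 3 (adjusted p = 0.074 to 0.13). It also did not pass under upper-quartile scaling (0.061) or with Days 60 and 113 fitted alone (0.069). ALDOA stood at 48.3, 47.0, 34.1 and 37.0 CPM at Day 30, 45.7, 42.1 and 38.4 CPM at Day 60 and 23.9, 32.4, 27.7 and 26.5 CPM at Day 113. Per kb the muscle form was at 17.3 ± 2.96 CPM per kb, against 96.5 ± 11.5 for ALDOC at Day 30 (SD, n = 4). The ALDOA values are uncertain, because in RefSeq the gene LOC112694756 (chromosome 16, 30053151 to 30070414) spans nearly all of ALDOA (30064279 to 30070420) and is not in the table. How reads shared by these 2 genes were counted is not known, and the low ALDOA count carries that limit. The count ratio of ALDOA to ALDOC was 0.231, 0.211, 0.191 and 0.211 at Day 30, 0.0799, 0.0926 and 0.0834 at Day 60 and 0.0452, 0.0386, 0.0380 and 0.0424 at Day 113, with no overlap between days. Its log2 value differed by -2.36 between Days 30 and 113 (exact permutation p = 0.0286, adjusted 0.0571). As counted, ALDOA fell by 0.59 ± 0.13 (SE; adjusted p = 0.0025) between Days 30 and 113.

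GAPDH and ENO1 of the payoff phase had the highest levels of the set. GAPDH, which oxidises glyceraldehyde-3-phosphate and is often used as a reference gene, measured 8026, 8401, 7514 and 7726 CPM at Day 30, 9168, 7601 and 7826 CPM at Day 60 and 5004, 6224, 5757 and 5423 CPM at Day 113. After Day 60 it fell by 0.55 ± 0.11 (SE; adjusted p = 0.0019). Each Day 113 well was below each earlier one, and GAPDH ended 1.41-fold lower than at Day 30 (adjusted p = 0.0012). PGK1, which makes the first ATP of the payoff phase, measured 1696, 1841, 1548 and 1921 CPM at Day 30, 2294, 1886 and 1982 CPM at Day 60 and 1122, 1455, 1478 and 1426 CPM at Day 113. It fell by 0.58 ± 0.12 (SE; adjusted p = 0.0024) after Day 60, without overlap. Its difference from Day 30 (-0.35 ± 0.11, SE; adjusted p = 0.021) was not called without Day 30 replicate 2 or 4 or Day 113 replicate 1 (adjusted p = 0.056 to 0.067), nor without Day 113 replicates 1 and 3 together (0.087). TPI1, which interconverts the triose phosphates, did not pass in any comparison, with 0.15 ± 0.13 (SE; adjusted p = 0.56), -0.29 ± 0.13 (0.11) and -0.15 ± 0.12 (0.38) before Day 60, after it and over the whole course. Its Day 113 wells were spread from 1206 to 1820.1 CPM, and without Day 113 replicate 2 the last change was -0.26 (adjusted p = 0.043).

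Phosphoglycerate mutase moves the phosphate group before enolase acts, with PGAM1 the general and PGAM2 the muscle form. PGAM2 (chromosome 7, 44062727 to 44065587, minus strand) measured 62.1, 59.3, 46.9 and 54.3 CPM at Day 30, 85.9, 93.3 and 82.7 CPM at Day 60 and 102, 135, 95.4 and 100.01 CPM at Day 113. It rose by 0.65 ± 0.13 (SE; adjusted p = 0.0037) to Day 60 and by 0.96 ± 0.12 (adjusted p = 1.6e-05) to Day 113. No later well reached down to the Day 30 range, and PGAM2 ended 1.94-fold higher. PGAM1 measured 481, 541, 461 and 538 CPM at Day 30, 548, 443 and 426 CPM at Day 60 and 418, 535, 471 and 454 CPM at Day 113. Its change over the course was -0.11 ± 0.11 (SE; adjusted p = 0.49). The count ratio of PGAM2 to PGAM1 was 0.129, 0.110, 0.102 and 0.101 at Day 30, 0.157, 0.211 and 0.194 at Day 60 and 0.244, 0.251, 0.203 and 0.220 at Day 113. Day 113 was 1.06 above Day 30 in log2 units (exact permutation p = 0.0286, adjusted 0.0571). PGAM1 has 13 annotated pseudogenes of its name, which limits its level. Per kb, PGAM2 went from 64.9 ± 7.78 to 126 ± 20.9 CPM per kb, and PGAM1 from 276 ± 22.01 to 257 ± 26.8 (SD, n = 4).

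Enolase makes phosphoenolpyruvate from alpha (ENO1), gamma (ENO2, the neuron-enriched form) and beta (ENO3, the muscle form) subunits. ENO1 (chromosome 1, 8861000 to 8879250, minus strand) measured 3806, 3724, 3167 and 3730.3 CPM at Day 30, 4497, 3947 and 4019.9 CPM at Day 60 and 1926, 2665, 2636 and 2097 CPM at Day 113. The Day 60 wells were the highest, at 0.20 ± 0.13 against Day 30 (SE; adjusted p = 0.37). ENO1 then fell by 0.83 ± 0.13 (SE; adjusted p = 2.5e-04), which is 1.78-fold lower, with no overlap between Day 113 and either other day. ENO3 measured 315, 305, 289 and 329 CPM at Day 30, 408, 322 and 353 CPM at Day 60 and 361, 633, 438 and 475 CPM at Day 113. Its rise of 0.62 ± 0.14 (SE; adjusted p = 0.0023) over the course passed, while neither interval passed alone (0.22 ± 0.15, adjusted p = 0.42, and 0.40 ± 0.15, adjusted p = 0.064). After Day 60 its value ran from 0.23 to 0.51 when single wells were left out, and was 0.62 (adjusted p = 0.0052) without Day 113 replicates 1 and 3 together. The count ratio of ENO3 to ENO1 was 0.0828, 0.0820, 0.0911 and 0.0883 at Day 30, 0.0908, 0.0815 and 0.0879 at Day 60 and 0.188, 0.238, 0.166 and 0.226 at Day 113. Days 30 and 60 overlapped, and Day 113 was 1.22 above Day 60 in log2 units (exact permutation p = 0.0286, adjusted 0.0571), 2.34-fold. ENO2 measured 341, 333, 249 and 312 CPM at Day 30, 657, 462 and 443 CPM at Day 60 and 199, 222, 262 and 239 CPM at Day 113. A rise of 0.75 ± 0.15 (SE; adjusted p = 0.0034) was followed by a fall of 1.18 (adjusted p = 5.1e-05). ENO2 was lower at Day 113 than at Day 30 by 0.42 (adjusted p = 0.024), with overlapping wells and no call without Day 30 replicate 1 or 2 or Day 113 replicate 1 (adjusted p = 0.061 to 0.079), or without Day 113 replicates 1 and 3 together (0.061).

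Pyruvate kinase and lactate dehydrogenase close the pathway. PKM measured 1987, 2038, 1692 and 1961 CPM at Day 30, 2495, 2018 and 2059.7 CPM at Day 60 and 1767, 2114, 1938 and 1737 CPM at Day 113. It did not pass in any comparison (-0.023 ± 0.10 from Day 30 to Day 113, SE; adjusted p = 0.89). The table does not separate its M1 and M2 splice forms. LDHA, the subunit that favours lactate formation, measured 2059, 2150.1, 1778 and 2199 CPM at Day 30, 2430.3, 1978 and 2208 CPM at Day 60 and 1460.4, 2002, 1719.9 and 1792 CPM at Day 113. Its change after Day 60 was -0.34 ± 0.12 (SE; adjusted p = 0.052), just short of passing. The alternatives gave adjusted p = 0.012 to 0.26. LDHB, the heart-type subunit, measured 886, 873, 878 and 987 CPM at Day 30, 967, 975 and 979.7 CPM at Day 60 and 681, 1067, 782 and 891 CPM at Day 113. Its value over the course was -0.084 ± 0.12 (SE; adjusted p = 0.63). The count ratio of LDHB to LDHA was 0.430, 0.406, 0.494 and 0.449 at Day 30, 0.398, 0.493 and 0.444 at Day 60 and 0.466, 0.533, 0.455 and 0.498 at Day 113. Its log2 difference of 0.13 between Days 30 and 113 lay within the spread of the wells (exact permutation p = 0.143, adjusted 0.196). Per kb, LDHA and LDHB stood at 587 ± 75.3 and 539 ± 104 CPM per kb at Day 113 (SD, n = 4), a difference smaller than the spread.

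The lactate transporters moved in opposite directions. MCT4 (SLC16A3) is the low-affinity exporter of glycolytic cells, and MCT1 (SLC16A1) the higher-affinity carrier that also takes lactate up in the heart. SLC16A1 (chromosome 1, 112911847 to 112957013, minus strand) measured 583, 602, 585 and 695 CPM at Day 30, 744, 657 and 778 CPM at Day 60 and 791, 875, 1004 and 863 CPM at Day 113. SLC16A3 (chromosome 17, 82228397 to 82261129, plus strand) measured 204, 205, 186 and 237 CPM at Day 30, 198, 177 and 153 CPM at Day 60 and 109, 171, 141 and 105 CPM at Day 113. All Day 113 wells were above all Day 30 wells for SLC16A1 and below them for SLC16A3. Over the course SLC16A1 rose by 0.52 ± 0.10 (SE; adjusted p = 8.2e-04) and SLC16A3 fell by 0.66 ± 0.14 (SE; adjusted p = 0.0018), and neither passed in a single interval. SLC16A1 counts exceeded SLC16A3 counts 2.86, 2.93, 3.15 and 2.93 times at Day 30, 3.75, 3.71 and 5.08 at Day 60 and 7.26, 5.12, 7.14 and 8.22 at Day 113, with no overlap between days. The log2 ratio was 1.20 higher at Day 113 than at Day 30 (exact permutation p = 0.0286, adjusted 0.0571), which is 2.30-fold. SLC16A3 shares exon sequence with CSNK1D, which is in the table.

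PDK1 to PDK4 inhibit the pyruvate dehydrogenase complex. PDK1, a known hypoxia target, measured 747, 748, 674 and 802 CPM at Day 30, 855, 693 and 809.8 CPM at Day 60 and 564, 579, 621 and 709 CPM at Day 113. It fell by 0.35 ± 0.11 (SE; adjusted p = 0.030) after Day 60 with overlapping wells. The fall did not pass without Day 60 replicate 1 or 3 or Day 113 replicate 1 or 3 (adjusted p = 0.058 to 0.14), or with Days 60 and 113 fitted alone (0.068). PDK3 measured 127, 119, 116 and 128 CPM at Day 30, 170.2, 123 and 169 CPM at Day 60 and 113, 83.9, 114 and 105 CPM at Day 113. Its change was 0.33 ± 0.13 (SE; adjusted p = 0.12) up to Day 60 and -0.57 ± 0.13 (adjusted p = 0.0042) after it. PDK2, the form abundant in adult heart, measured 90.6, 79.0, 72.2 and 90.8 CPM at Day 30, 120.3, 94.0 and 94.1 CPM at Day 60 and 94.4, 114, 99.4 and 102 CPM at Day 113. It rose by 0.30 ± 0.11 (SE; adjusted p = 0.042) by Day 113. The PDK2 rise did not pass without Day 30 replicate 2 or 3 or Day 113 replicate 2, 3 or 4 (adjusted p = 0.061 to 0.14), or under upper-quartile scaling (0.058). The log2 ratio of PDK2 to PDK1 was 0.57 higher at Day 113 than at Day 30 (exact permutation p = 0.0286, adjusted 0.0571), with no overlap. PDK4 measured 2.67, 2.70, 2.96 and 1.37 CPM at Day 30, 1.31, 1.81 and 2.40 CPM at Day 60 and 3.81, 2.55, 2.48 and 1.40 CPM at Day 113. These levels rest on 35 to 132 counts per library. Its days overlapped, and its value over the course was 0.081 ± 0.37 (SE; adjusted p = 0.89).

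Fructose-2,6-bisphosphate, the strongest activator of phosphofructokinase 1, is set by the PFKFB enzymes, of which PFKFB2 is the heart form and PFKFB3 and PFKFB4 are known as inducible forms. PFKFB2 measured 20.9, 18.6, 16.0 and 18.0 CPM at Day 30, 29.8, 24.5 and 30.5 CPM at Day 60 and 20.6, 13.4, 18.8 and 17.6 CPM at Day 113. It rose by 0.63 ± 0.16 (SE; adjusted p = 0.017) and then fell by 0.68 ± 0.16 (SE; adjusted p = 0.0049), so that the Day 60 wells lay above all others. The rise was not called without Day 30 replicate 3 or Day 60 replicate 1 or 3 (adjusted p = 0.056 to 0.068). PFKFB3 measured 88.9, 89.3, 85.7 and 102 CPM at Day 30, 91.9, 77.8 and 37.9 CPM at Day 60 and 92.5, 61.2, 97.1 and 102 CPM at Day 113. It passed in no comparison, with Day 60 replicate 3 far below its 2 companions. PFKFB4 measured 108, 88.2, 86.9 and 109 CPM at Day 30, 128, 97.4 and 54.4 CPM at Day 60 and 70.4, 43.9, 72.9 and 40.4 CPM at Day 113. Day 60 replicate 3 was again the lowest of its day. PFKFB4 fell by 0.78 ± 0.23 (SE; adjusted p = 0.014) over the course. Its call after Day 60 (-0.71 ± 0.24, adjusted p = 0.043) depended on single wells, being -0.42 (adjusted p = 0.26) without Day 60 replicate 1. Without Day 113 replicates 1 and 3 together it was -1.15 (adjusted p = 0.0052), and the value over the course -1.21 (0.0015). Leaving out any one Day 30 well, Day 60 replicate 2, or Day 113 replicate 2 or 4 ended the call after Day 60 (adjusted p = 0.051 to 0.26 over all these wells). So did DESeq2 (0.065), limma-voom (0.061) and a fit of Days 60 and 113 alone (0.080). The log2 ratio of PFKFB4 to PFKFB3 differed by -0.75 between Days 30 and 113 (exact permutation p = 0.0286, adjusted 0.0571), with no overlap.

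In all, 16 isoform pairs were compared over the 3 pairs of days in 48 exact permutation tests, two-sided. The smallest p these designs allow is 0.0286, which 24 of the tests reached, and after adjustment over all 48 the smallest value was 0.0571, so no ratio passed 0.05. Counted without a test, the wells of Days 30 and 113 did not overlap in 10 of the 16 pairs, those of Days 30 and 60 in 10 and those of Days 60 and 113 in 8. Taken singly, 35.1%, 24.8% and 30.6% of all genes did not overlap between these days. No such share was computed for ratios of other gene pairs, so these counts have no background. Some pairs also share a gene, such as SLC2A1 or PDK1, and are not independent. The muscle-type member was higher against its partner in every Day 113 well than in every Day 30 well in the phosphofructokinase, mutase and enolase pairs (PFKM, PGAM2, ENO3). Of these, PGAM2 and ENO3 rose over the course, while PFKM itself did not pass (0.11 in log2 units). The partners PFKL, PFKP and ENO1 fell. In the hexokinase pair the muscle-type HK2 was lower. In the aldolase pair the muscle-type ALDOA was lower too, and this was the largest ratio difference of the 48, with the limit on ALDOA counts given above. In the lactate dehydrogenase pair and in that of SLC2A4 to SLC2A1 the wells overlapped.

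**Figure D4:**
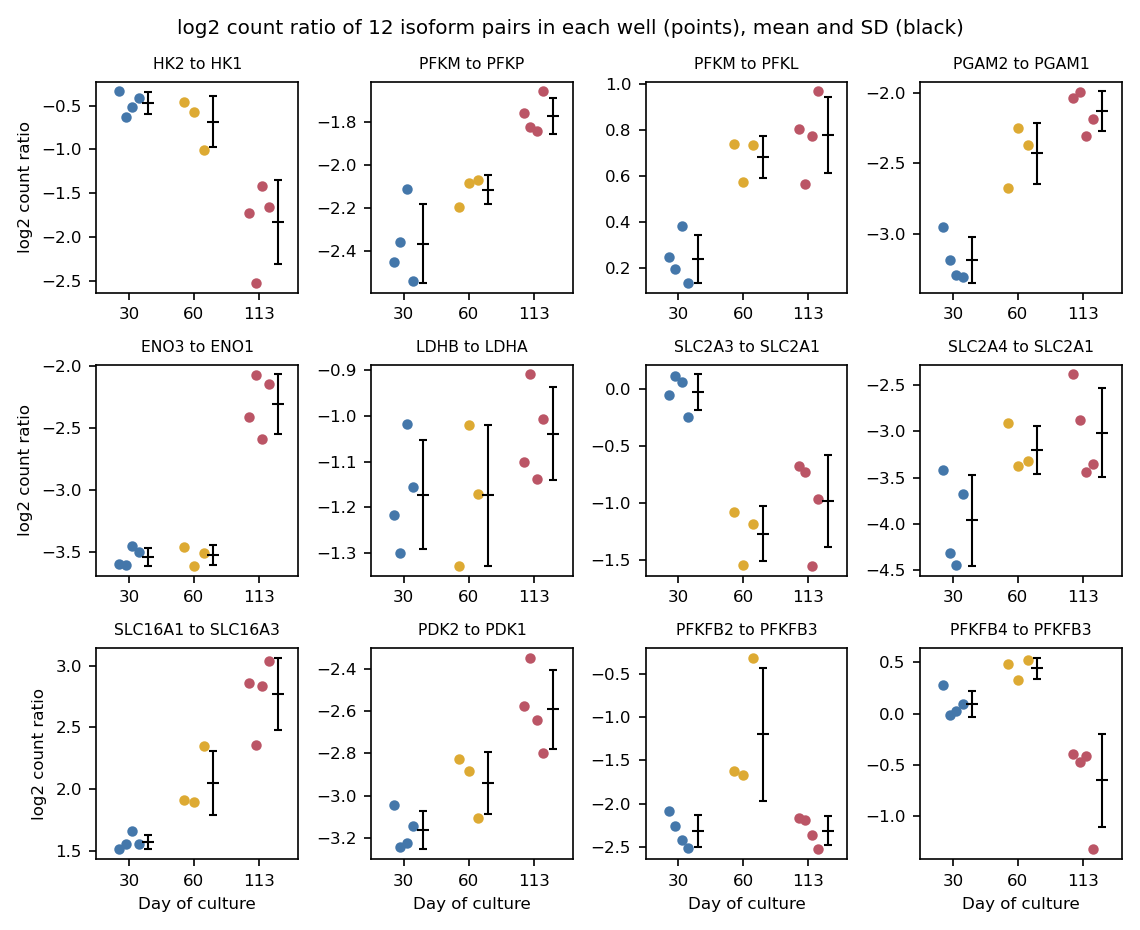
Log2 ratio of read counts of 12 isoform pairs in each well (points: blue Day 30, yellow Day 60, red Day 113), with the mean and SD in black (n = 4, 3 and 4). ENO3 to ENO1 and HK2 to HK1 separate only at Day 113, PFKM to PFKL and PGAM2 to PGAM1 are already higher at Day 60, and LDHB to LDHA overlaps at all 3 days.

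The 2 intervals were compared directly with the contrast of the second change minus the first. It passed for 8 of the 31 genes, all with a value below 0, where 9.34% of all genes passed (4.38% below 0 and 4.97% above). The 8 genes were ENO2 (-1.93 ± 0.25, SE; adjusted p = 5.4e-04), SLC2A4 (-1.65 ± 0.31; 0.0041), PFKFB2 (-1.31 ± 0.27; 0.0071), ENO1 (-1.04 ± 0.22; 0.0081), PDK3 (-0.90 ± 0.22; 0.018), PGK1 (-0.81 ± 0.21; 0.023), ALDOC (-0.88 ± 0.25; 0.041) and SLC2A1 (-1.02 ± 0.31; 0.0495). In ENO2, SLC2A4 and PFKFB2 a called rise was followed by a called fall, whereas ALDOC rose in both intervals and less in the second. Only 2 of the 8, ENO2 and PFKFB2, passed when Day 60 replicate 1 was left out, and 5 genes passed without Day 60 replicate 3, of which PFKM (-0.69, adjusted p = 0.049) was not among the 8. Of all genes, 3.22% and 3.87% passed in those fits. In the 6 others the adjusted p without Day 60 replicate 1 was 0.057 for ENO1, 0.052 for SLC2A4, 0.11 for PDK3, 0.14 for PGK1, 0.21 for ALDOC and 0.17 for SLC2A1. Without Day 60 replicate 3, PGK1 (0.068), PDK3 (0.11), ALDOC (0.077) and SLC2A1 (0.065) did not pass. ALDOC and SLC2A1 also missed it without 5 and 6 further wells taken singly, at 0.055 to 0.21 and 0.051 to 0.17 over all such wells. Cell cycle genes were highest at Day 60 as well (708, 491 and 643 CPM, against 303 to 378 at Day 30 and 194 to 359.9 at Day 113), and their part in the Day 60 peak was not tested.

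**Figure D5:**
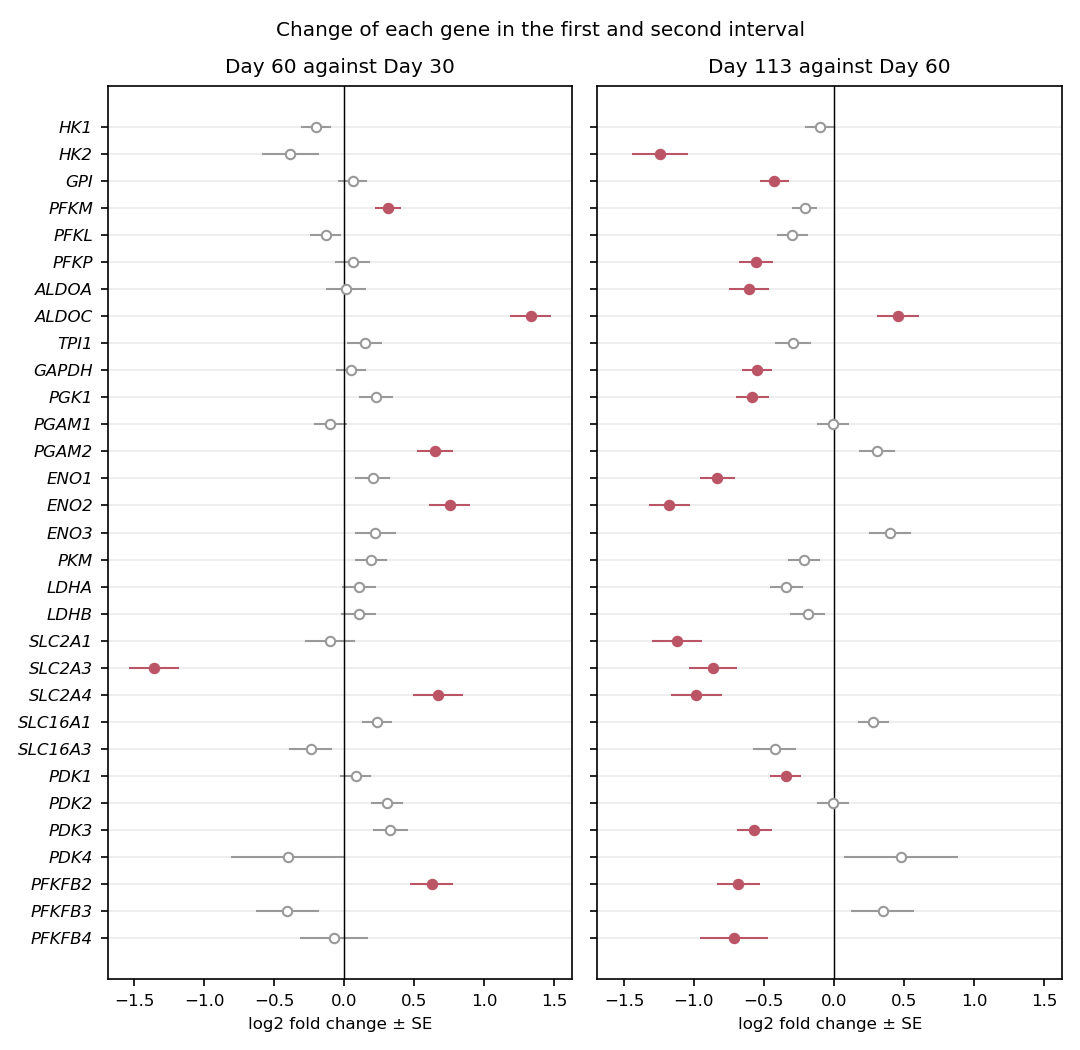
Log2 fold change with its SE for each gene in the first interval (left) and the second (right), which share the Day 60 wells. Filled red points passed an adjusted p of 0.05: 7 genes on the left, of which SLC2A3 alone is below 0, and 16 on the right, of which ALDOC alone is above 0.

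Neighbouring genes of the pathway were taken from 4 further lists, read against the shares of all genes given above. Among other genes of glycolysis and glucose entry, 6 of 25 tested genes rose and 6 fell from Day 30 to Day 113, with a median of -0.071. GPD1L, a glycerol-3-phosphate dehydrogenase-like enzyme, measured 16.9, 19.9, 20.3 and 17.6 CPM at Day 30, 34.8, 26.9 and 28.3 CPM at Day 60 and 108, 113, 116 and 107 CPM at Day 113. It rose in both intervals (0.68 ± 0.11 and 1.89 ± 0.11, SE; adjusted p = 9.1e-04 and 1.6e-07). SLC2A5, the fructose transporter GLUT5, went from 0.497, 0.467, 0 and 0.0687 CPM at Day 30 to 6.99, 9.52, 5.39 and 8.54 CPM at Day 113 (adjusted p = 3.6e-05). SLC2A10 and SLC2A12, further members of the transporter family, fell by 1.18 and 0.88 in log2 units (adjusted p = 1.8e-04 and 5.2e-04). Of the genes for pyruvate entry into mitochondria, 4 of 11 tested genes rose and 3 fell from Day 30 to Day 113. PDP1, a phosphatase that reactivates pyruvate dehydrogenase, rose by 0.77 ± 0.15 (SE; adjusted p = 0.0011), and DLD, the shared dihydrolipoamide dehydrogenase, by 0.65 ± 0.10 (adjusted p = 1.7e-04). The second phosphatase PDP2 and the regulator PDPR fell by 1.21 ± 0.16 and by 0.79 ± 0.12 (SE; adjusted p = 2.9e-05 and 1.2e-04).

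Of the glycogen genes, 1 of 13 tested genes rose and 5 fell from Day 30 to Day 113. The branching enzyme GBE1 fell by 0.66 ± 0.12 (SE; adjusted p = 5.1e-04) and PHKA1, a phosphorylase kinase subunit, by 0.69 ± 0.13 (adjusted p = 8.1e-04), while UGP2, which makes UDP-glucose, rose by 0.29 ± 0.10 (adjusted p = 0.030). Of the hypoxia-responsive genes outside the set, 2 of 13 tested genes rose and 4 fell from Day 30 to Day 113, with a median of -0.10. By interval, 3 rose and 0 fell to Day 60, and 0 rose and 3 fell after it. The second change minus the first passed for 5 of the 13, all below 0 (4.38% of all genes). Their summed CPM was 2447 to 2763 at Day 30, 2783 to 3750 at Day 60 and 2187 to 2580 at Day 113. NDRG1 measured 161, 167, 129 and 127 CPM at Day 30, 192, 163 and 142 CPM at Day 60 and 54.6, 51.1, 80.7 and 41.0 CPM at Day 113. It fell after Day 60 (-1.54 ± 0.18, SE; adjusted p = 3.5e-05). P4HA1, a collagen prolyl hydroxylase subunit, fell by 0.59 ± 0.12 over the course (SE; adjusted p = 0.0014). EGLN3, the oxygen-sensing prolyl hydroxylase PHD3, measured 131, 159.9, 131 and 147 CPM at Day 30, 375, 266 and 221 CPM at Day 60 and 191, 280.3, 290.4 and 258 CPM at Day 113. It rose by 1.02 ± 0.16 to Day 60 (SE; adjusted p = 9.2e-04), and all Day 113 wells were above all Day 30 wells. CA9, a carbonic anhydrase used as a hypoxia marker, measured 1.26, 3.40, 2.14 and 1.96 CPM at Day 30, 6.83, 4.75 and 4.54 CPM at Day 60 and 1.62, 10.5, 5.93 and 8.50 CPM at Day 113. It rose by 1.59 ± 0.44 over the course (SE; adjusted p = 0.010) from these low levels.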

How the data were processed

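The authors deposited whole-number read counts per gene symbol, with no normalization. Per the submitters' processing notes, STAR 2.5.3a and featureCounts 2.0.3 were used with hg38, and the annotation and the handling of strand and shared reads are not given in the sources used here. The authors also deposited TPM values, which entered no result, since the gene lengths implied by counts over TPM were unrelated between libraries (median Spearman rho -0.00095 over 55 library pairs, across genes).

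The main test was edgeR's quasi-likelihood test (glmQLFTest, edgeR 4.0.16, R 4.3.3) on these counts, with TMM scaling, a term for each day and all 11 libraries (filterByExpr with a minimum count of 10, which removed none of 19990 genes). P-values were adjusted by Benjamini-Hochberg over all genes within each contrast, with a threshold of 0.05, and an adjusted p of a gene is from this test unless another fit is named. "Rose" and "fell" refer to this test, and SE is the absolute log2 fold change over the square root of F. CPM used TMM effective library sizes. Isoform ratios used log2 counts with a pseudocount of 0.5. The fit was tested on simulated data for Day 113 against Day 30 (19246 genes, 200 changed): it recovered 59% of 2-fold and 69% of 4-fold changes, and 12 of its 140 calls were false.

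Alternatives were other scalings, DESeq2 1.42.0, limma-voom (limma 3.58.1), other filters, a pseudocount of 5 for ratios, a replicate block, the 2 compared days alone and leaving out wells. Wells of a day differed by more than sampling noise (chi-square per degree of freedom 11.4 to 84.0). The 31 genes were chosen by name, and these and the other lists were chosen with earlier results of these data known. All 31 are named, with, from each other list, up to 2 highest and 2 lowest changes called over the course with at least 5 CPM in the higher day.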

Additional observations from a re-analysis of the deposited data

Results flagged for a closer look

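In groups of 4 wells, 4 of 62 gene and day combinations held a well far from the other 3 on the log2 scale, and chance alone would set apart about 1 in 20. They were ENO1 in Day 30 replicate 3 (3167 CPM, others 3724 to 3806), LDHB in Day 30 replicate 4 (987 CPM, others 873 to 886), PDK4 in Day 30 replicate 4 (1.37 CPM, others 2.67 to 2.96) and PGK1 in Day 113 replicate 1 (1122 CPM, others 1426 to 1478). The last well also had the highest fibroblast and endothelial sums of its day, whose part was not tested.

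The change in the second interval differed from that in the first for 8 genes when the difference was tested: ALDOC (-0.88), PGK1 (-0.81), ENO1 (-1.04), ENO2 (-1.93), SLC2A1 (-1.02), SLC2A4 (-1.65), PDK3 (-0.90), PFKFB2 (-1.31), in log2 units.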

How the results depend on the processing

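The number of genes called from Day 30 to Day 113 (19) and from Day 60 to Day 113 (16) stayed within 1.5 times under every alternative run, with 15 to 20 and 13 to 19 when single wells were left out, and 13 to 22 over the tools, scalings and filters for the second. Leaving out single wells gave 4 to 8 genes for Day 60 against Day 30 (7 with all wells) and 2 to 10 for the difference between intervals (8 with all wells). Upper-quartile scaling moved the median of all genes by -0.11 in the difference between intervals, where it called 11 genes (9.58% of all genes) and DESeq2 12 (13.2%). The replicate number was not a pairing in the labels. Deviations of same-numbered wells correlated at 0.0188 to 0.0571 across genes (10 pairs, all above 0). Wells with other numbers correlated at -0.0633 to 0.0394 (30 pairs). What same-numbered wells may share was not tested. With the replicate block 7, 17, 21 and 6 genes were called in the first interval, the second, the whole course and the difference, against 12.4%, 24.8%, 35.7% and 11.8% of all genes. The block put 36 ratio differences at their smallest p (24 without it), a floor that changes with the design, so these counts are not comparable. It ended the calls of PFKFB4 after Day 60 (0.052) and of ALDOC and SLC2A1 in the difference (0.055 and 0.051). The block turned ALDOA in the first interval to -0.010 and LDHB to LDHA there to 0.0041. Without Day 113 replicates 1 and 3, an alternative added after the data were seen, uncalled changes turned for PGAM1 (0.067), LDHB (0.0082) and PDK2 (0.070) after Day 60 and for PKM (0.0052), LDHB (0.11) and PDK4 (-0.29) over the course. It also ended the calls over the course of HK1, GPI, PGK1 and ENO2 (adjusted p = 0.075, 0.064, 0.087 and 0.061) and of PDK1 after Day 60 (0.14). Signs of changes that did not pass also turned without single wells. In the first interval the ranges were -0.012 to 0.14 for GPI, -0.048 to 0.17 for PFKP, -0.069 to 0.10 for ALDOA, -0.014 to 0.11 for GAPDH, -0.18 to 0.031 for SLC2A1 and -0.35 to 0.23 for PFKFB4. After Day 60 they were -0.087 to 0.10 for PGAM1 and -0.075 to 0.11 for PDK2. Over the course they were -0.081 to 0.016 for PKM, -0.21 to 0.012 for LDHB, -0.17 to 0.28 for PDK4, -0.14 to 0.052 for PFKFB2 and -0.13 to 0.084 for PFKFB3. Ratio differences ran -0.022 to 0.056 (ENO3 to ENO1) and -0.079 to 0.076 (LDHB to LDHA) in the first interval, -0.021 to 0.34 (SLC2A4 to SLC2A1) in the second, and -0.066 to 0.089 (PDK3 to PDK1) and -0.054 to 0.086 (PFKFB2 to PFKFB3) over the course. The cause was not tested. No called change of the 31 genes changed sign under any alternative run. The fewest counts among the 31 genes were those of PDK4 (35 to 132 a library), and among the other named genes SLC2A5 had 0 to 254 and CA9 33 to 281.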

Other observations

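Day 60 replicate 3 was the lowest of its day for HK2 (184 CPM against 323 and 256), PFKFB3 (37.9 against 91.9 and 77.8) and PFKFB4 (54.4 against 128 and 97.4), while its PFKFB2 was 30.5 CPM against 29.8 and 24.5. The ratio of PFKFB2 to PFKFB3 counts was 0.807 in that well and 0.324 and 0.315 in the other Day 60 wells. Summed CPM of 13 other hypoxia-responsive genes was 3749.9, 3080.3 and 2783 in Day 60 replicates 1 to 3. MPC1, a subunit of the mitochondrial pyruvate carrier, measured 56.4, 47.9, 43.5 and 57.9 CPM at Day 30, 113, 89.3 and 101 CPM at Day 60 and 64.7, 83.3, 66.4 and 82.4 CPM at Day 113. It rose to Day 60 and then fell (adjusted p = 2.0e-04 and 0.019), and was named after its values were seen.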
